A study of Arabidopsis thaliana with 18 samples.

Results

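IRX15 (AT3G50220, chromosome 3) is a gene of xylan synthesis. AT5G41250 (chromosome 5) is annotated to a glycosyltransferase family that includes enzymes of cell wall polysaccharide synthesis. Both were represented by a single probe set each on the array. They are 2 of 19755 probe sets tested, of which 11763 were annotated to a single gene. Both were chosen because their course over seed development differed between the accessions in these same arrays, so their levels and differences are given as a description, with standard errors and with no test. Seeds of Arabidopsis thaliana Col-0, the reference accession, and C24, a second natural accession, were compared at 8-9, 10-11 and 12-13 days after flower opening, with 3 arrays in each of the 6 groups (18 arrays). Both accessions were untreated and grown alike in long days. Each array was hybridised with RNA from whole seeds dissected out of 48 siliques, 8 from each of 6 plants, and every pool mixed plants of 2 experiments. Pools and stages of an accession may share plants, and which plants went into which array is not given in the sources used here, so the p-values below measure the spread between pools.

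Xylan is a chain of xylose units carrying glucuronic acid, methylglucuronic acid and acetyl side groups, and it is the main hemicellulose of the secondary walls of Arabidopsis. IRX15 and its close relative IRX15-L are Golgi proteins of the DUF579 family, and plants lacking both make xylan of altered chain length and methylation. Other DUF579 proteins are methyltransferases that place methyl groups on glucuronic acid of xylan or of arabinogalactan. AT5G41250 is annotated as an exostosin family protein, a family of glycosyltransferases classed as GT47. Well-studied GT47 members include MUR3, which adds galactose to xyloglucan, the main hemicellulose of primary walls, and IRX10, which takes part in building the xylan backbone. The sugar that the AT5G41250 protein transfers is not given in the sources used here. In seeds, xylan is known from the mucilage of the coat and xyloglucan from the walls of the embryo.

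IRX15 lay near the bottom of the signal range in all Col-0 seeds and in the youngest C24 seeds, and far higher in C24 seeds from 10-11 days on. In Col-0 the IRX15 log2 levels were 3.78, 3.91 and 3.82 at 8-9 days, 3.65, 3.66 and 3.89 at 10-11 days, and 3.73, 3.96 and 3.67 at 12-13 days. In C24 they were 3.80, 3.86 and 3.88 at 8-9 days. The C24 arrays then gave 7.71, 8.08 and 7.59 at 10-11 days and 8.24, 8.44 and 8.03 at 12-13 days. The 12 arrays of the first 4 of these groups overlapped, and each lay below the 25th percentile of its own array, which ranged from 4.41 to 4.57. All 6 later C24 arrays lay above every other array, and the ranges of C24 at 10-11 and 12-13 days overlapped.

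On the log2 scale the IRX15 group means were 3.84 ± 0.07, 3.73 ± 0.14 and 3.78 ± 0.15 (SD, n = 3) in Col-0, in stage order. In C24 the means were 3.85 ± 0.05, 7.79 ± 0.25 and 8.24 ± 0.21 (SD, n = 3). C24 minus Col-0 was 0.01 ± 0.12 (SE) at 8-9 days, 4.06 ± 0.12 at 10-11 days (16.7-fold on the linear scale) and 4.45 ± 0.12 at 12-13 days (21.9-fold). The order of the group means therefore put C24 at 12-13 days first and C24 at 10-11 days second, 0.44 ± 0.12 (SE) apart, and then 4 groups whose means lay within the spread of their arrays. Most of the C24 change lay in the early step, where it was 3.95 ± 0.12 (15.4-fold) from 8-9 to 10-11 days, against -0.11 ± 0.12 in Col-0. From 8-9 to 12-13 days it was 4.39 ± 0.12 (20.9-fold) in C24 and -0.05 ± 0.12 in Col-0.

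The difference of the stage courses, C24 change minus Col-0 change, was 4.05 ± 0.17 (SE) for the early step, 0.39 ± 0.17 for the late step and 4.44 ± 0.17 for the whole span, on the log2 scale. Among all 19755 probe sets the early and whole-span values of IRX15 ranked highest. Its C24 minus Col-0 difference ranked 2 from the top at 10-11 days and again at 12-13 days, whereas its C24 change over the whole span, taken alone, ranked 89. These comparisons share arrays and are not separate evidence. The low Col-0 levels are not shown to lie above background, because the table carries no detection measure, so the folds can understate the real difference. The differences of courses can be off in either direction, since a Col-0 change below background would not be seen.

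AT5G41250 had the opposite course in C24, highest in the youngest seeds, and a low and level course in Col-0. In Col-0 its log2 levels were 4.83, 4.34 and 4.28 at 8-9 days, 4.20, 4.84 and 4.40 at 10-11 days, and 4.38, 4.47 and 4.64 at 12-13 days. In C24 they were 9.74, 10.06 and 10.23 at 8-9 days, 6.95, 6.74 and 6.87 at 10-11 days, and 5.94, 5.82 and 5.65 at 12-13 days. Every C24 array lay above every Col-0 array, and the 3 C24 stages did not overlap one another. The Col-0 stages overlapped fully, and at each stage 2 of the 3 Col-0 arrays lay below the 25th percentile of their own array.

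The AT5G41250 group means were 4.48 ± 0.30, 4.48 ± 0.33 and 4.49 ± 0.13 (SD, n = 3) for Col-0, against 10.01 ± 0.25, 6.85 ± 0.10 and 5.81 ± 0.14 (SD, n = 3) for C24, on the log2 scale. C24 minus Col-0 was 5.53 ± 0.16 (SE) at 8-9 days, a linear ratio of 46.1, then 2.37 ± 0.16 (5.17-fold) at 10-11 days and 1.31 ± 0.16 (2.48-fold) at 12-13 days. As for IRX15, the Col-0 levels are not shown to lie above background, so these ratios can understate the real difference. The ranks of the accession difference below rest on these ratios. The differences of courses, and their ranks, can be off in either direction, since a Col-0 change below background would not be seen. The order of the means followed stage within C24, each neighbour standing apart beyond its spread, with the 3 Col-0 groups last and not separable from one another. Within C24 the change was -3.16 ± 0.16 in the early step, an 8.93-fold lower level, and -1.05 ± 0.16 in the late step, a 2.07-fold lower level. Over the whole span the C24 change was -4.20 ± 0.16, an 18.4-fold lower level, against 0.01 ± 0.16 in Col-0.

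For AT5G41250 the difference of the stage courses was -3.15 ± 0.23 (SE) for the early step, -1.06 ± 0.23 for the late step and -4.22 ± 0.23 for the whole span. The early value ranked 3 and the whole-span value ranked 4 from the bottom of the 19755 probe sets. The accession difference of AT5G41250 ranked 2 from the top at 8-9 days, 19 at 10-11 days and 94 at 12-13 days. The accession difference was thus smaller at each later stage for AT5G41250, while for IRX15 it was within its error at 8-9 days and large at both later stages. The level of one probe set cannot be set against that of the other, so only differences within a gene are compared.

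**Figure D1:**
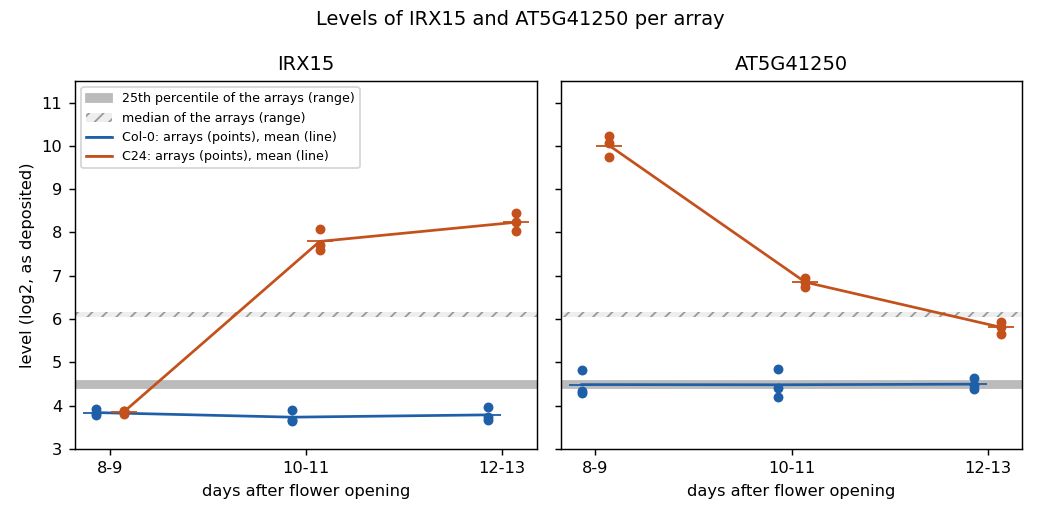
Log2 level of IRX15 (left) and AT5G41250 (right) on each of the 18 arrays against days after flower opening, with Col-0 in blue and C24 in orange, group means as short bars joined by lines, and grey bands for the range of array 25th percentiles (solid) and medians (hatched). IRX15 lay below the lower band except in C24 at 10-11 and 12-13 days, and AT5G41250 in C24 started at a mean of 10.01 and was at 5.81 at 12-13 days while Col-0 stayed near 4.48.

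As a check on the samples, array medians ranged from 6.05 to 6.17 on the log2 scale, and arrays of the same group correlated at r = 0.992 to 0.997, against 0.859 to 0.985 for arrays of different groups. In bulk seed RNA, fewer cells of a type and less RNA per cell cannot be told apart. Of 18 seed coat marker genes, 5 were measured, and all 5 fell from 8-9 to 12-13 days in both accessions by limma's moderated test (adjusted p under 0.05, against 30.5% of all probe sets called lower and 60.6% called either way in Col-0, and 30% and 59.4% in C24). Their summed level, as log2 of the linear sum, ranged over 13.53-13.62, 11.80-12.14 and 11.20-11.43 for Col-0, against 13.01-13.31, 11.60-11.72 and 11.22-11.35 for C24, in stage order. BAN, an enzyme of coat tannin synthesis, was lower in C24 at 8-9 days by a log2 difference of -0.75 ± 0.16 (SE; limma adjusted p = 0.00264) and higher at 12-13 days by 0.95 ± 0.16 (0.000255). DFR, an enzyme earlier in that pathway, was lower in C24 at 8-9 days (-0.85 ± 0.10, limma adjusted p = 5.02e-06), as was the peroxidase gene AT3G50990 (-1.73 ± 0.17, limma adjusted p = 8.24e-07). The other coat markers did not pass at 8-9 days, with -0.26 ± 0.12 (0.128) for ARA12, a subtilase, and 0.16 ± 0.11 (0.343) for AT2G22900. At 10-11 days AT2G22900 was lower in C24 (-0.39 ± 0.11, limma adjusted p = 0.0155). That call was lost without replicate 2 of Col-0 (0.0635) or replicate 3 of C24 (0.0962) at that stage. AT3G50990 was also lower in C24 at 10-11 days (-0.53 ± 0.17, limma adjusted p = 0.0383), a call lost in 4 of 6 analyses with 1 compared array left out. The only measured markers of other tissues were PAP85 for the embryo (1 of 14), AGL62 for the endosperm (1 of 8) and ALC for the silique wall (1 of 7). The level of PAP85, a storage protein, ranged from 11.16 to 12.15 at 8-9 days and from 13.11 to 13.37 later, and no accession difference passed (1 of 3 at an unadjusted p under 0.05 by limma). AGL62 lay below the 25th percentile on all arrays, at 3.47 to 4.05, and was lower in C24 at 12-13 days by -0.27 ± 0.08 (limma adjusted p = 0.0219), a call lost without replicate 2 of Col-0 (0.108) or replicate 3 of C24 (0.096) at that stage. ALC ranged from 5.64 to 6.53, with accession differences of 0.04, 0.10 and 0.16 in stage order, none past the threshold, unadjusted included. The gap between the 3′ and 5′ probe sets of GAPDH, a sign of RNA integrity, was 0.29, 0.76 and 1.21 for Col-0, against 0.54, 0.97 and 0.57 for C24, in stage order. A second GAPDH pair gave 0.15, 0.18 and 0.45 (Col-0) and 0.27, 0.32 and 0.18 (C24). The actin pair gave 1.89, 1.44 and 1.34 (Col-0) and 2.02, 1.78 and 1.20 (C24), and a second actin pair 1.87, 1.41 and 1.73 (Col-0) and 1.85, 1.58 and 1.42 (C24), so the gaps did not share one course. Any part of the markers or of RNA integrity in the courses of IRX15 and AT5G41250 was not tested.

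The DUF579 family shows how far the course of IRX15 is shared by its relatives. Of its 9 other members 4 were measured, and their accession differences ranged from -0.46 to 0.05 at 8-9 days, from -0.05 to 0.53 at 10-11 days and from -0.03 to 0.83 at 12-13 days. At 8-9 days 1 was lower in C24 and none higher, at 10-11 days 2 were higher and none lower, and at 12-13 days 1 was higher and none lower, in that order of stages. Of all probe sets, 10.3% were called higher and 9.22% lower at 8-9 days (19.5% in all), 9.61% and 9.54% at 10-11 days (19.1%), and 11.3% and 11.7% at 12-13 days (23%). For the whole-span difference of courses, 2 of 4 passed, both upward, against 4.73% called upward, 5.9% downward and 10.6% in all among all probe sets, and the median was 0.54 against 0.01 over all probe sets. A family of 4 measured genes is too small for a share to be read closely.

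IRX15-L (AT5G67210), the relative that shares its function with IRX15, increased in both accessions. Its log2 means were 4.94, 5.72 and 7.51 for Col-0, against 4.91, 6.26 and 7.49 for C24, in stage order. The whole-span change was 2.57 ± 0.10 (SE; limma adjusted p = 1.72e-13) for Col-0 seeds and 2.58 ± 0.10 (2.1e-13) for those of C24, and the difference of the courses was 0.01 ± 0.15 (adjusted p = 0.99). The accessions differed at 10-11 days, by 0.53 ± 0.10 (limma adjusted p = 0.00104). The early-step difference of courses was 0.57 ± 0.15 (0.021), where 8.12% of all probe sets passed, and its call was lost without replicate 1 of Col-0 at 8-9 days (limma adjusted p = 0.0506), replicate 2 of Col-0 at 10-11 days (0.063), replicate 2 of C24 at 8-9 days (0.0613) or replicate 2 of C24 at 10-11 days (0.0612). The late-step difference had the opposite sign, -0.56 ± 0.15 (limma adjusted p = 0.0226), where 8.27% of all probe sets passed. That call was lost in 4 of 12 analyses with 1 array left out.

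AT1G27930, known as an arabinogalactan methyltransferase, followed a course of the same direction as IRX15 at a far smaller size. Its log2 means were 4.34, 4.35 and 4.38 for Col-0, against 4.39, 4.70 and 5.21 for C24. The Col-0 means and that of C24 at 8-9 days lay below the lowest array 25th percentile (4.41). These levels are not shown to lie above background, so the AT1G27930 difference at 12-13 days can be understated. Its difference of courses can be off in either direction. C24 minus Col-0 was 0.83 ± 0.10 (SE; limma adjusted p = 1.01e-05) at 12-13 days, and the whole-span difference of courses was 0.78 ± 0.15 (0.00164). AT1G71690, another DUF579 gene, fell in both accessions, where Col-0 means went from 9.62 to 6.80 and C24 means from 9.16 to 7.08. It was lower in C24 at 8-9 days (-0.46 ± 0.10, limma adjusted p = 0.00316), and its fall was smaller in C24 by 0.74 ± 0.14 (0.00208). AT2G15440 did not pass, with a whole-span difference of 0.34 ± 0.14 (0.147).

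Of 34 genes of xylan synthesis 4 were measured, IRX15-L among them, so that most of the xylan machinery was not analysed here. GUT2, which is IRX10, fell in both accessions, with log2 means of 6.77, 5.32 and 5.02 for Col-0, against 6.14, 5.09 and 4.96 for C24. It was lower in C24 at 8-9 days by -0.63 ± 0.11 (SE; limma adjusted p = 0.000264). Its whole-span difference of courses was 0.57 ± 0.15 (0.0182), a call lost without replicate 2 of Col-0 at 8-9 days (limma adjusted p = 0.0503) or replicate 1 of C24 at 8-9 days (0.0539). GUT1, which is IRX10-L, was higher in C24 at 12-13 days by 0.25 ± 0.09 (0.0437), a call lost in 5 of 6 analyses with 1 compared array left out (limma adjusted p = 0.0688 to 0.23), the exception being replicate 1 of C24. AT3G10320, known as MUCI21, a xylosyltransferase of seed mucilage xylan, passed in no accession difference, with values from -0.16 to 0.12. Counted by comparison, 1 of 4 was lower at 8-9 days, 1 higher at 10-11 days, 1 higher at 12-13 days and 1 higher for the whole-span course, counts too small to be read against the shares of all probe sets given above. None of the 8 genes of secondary wall cellulose and lignin and none of the 16 secondary wall regulators on the lists was measured under a single gene name.

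The GT47 family held 20 measured genes of 38 besides AT5G41250, GUT1 and GUT2 included. At 8-9 days 6 were higher and 1 lower in C24, at 10-11 days 6 and 1, and at 12-13 days 4 and 1, out of 20. Of all probe sets, 10.3%, 9.61% and 11.3% were called higher and 9.22%, 9.54% and 11.7% lower, in stage order (19.5%, 19.1% and 23% either way). With 1 array of the compared groups left out the count past the threshold was 3 to 6 at 8-9 days (3 without replicate 2 of C24, and 4 without any of the others except replicate 3 of C24), 4 to 7 at 10-11 days (4 without replicate 1 or 2 of Col-0) and 2 to 4 at 12-13 days (2 without replicate 3 of C24, and 3 without replicate 1 or 3 of Col-0 or replicate 1 or 2 of C24). The median differences were -0.05, 0.02 and -0.04, against -0.02, 0.01 and -0.01 over all probe sets. For the whole-span course 1 passed upward and 1 downward of 20, against 10.6% of all, and the median was -0.02. The accession differences of these 20 genes ranged from -0.71 to 0.68 over the 3 stages, while those of AT5G41250 ranged from 1.31 to 5.53.

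Within GT47, AT4G13990 rose less in C24 than in Col-0. Its log2 means were 6.32, 8.01 and 7.89 for Col-0, against 6.16, 7.36 and 7.18 for C24. C24 minus Col-0 was -0.65 ± 0.07 (SE; limma adjusted p = 3.99e-06) at 10-11 days and -0.71 ± 0.07 (1.13e-06) at 12-13 days, and the whole-span difference of courses was -0.55 ± 0.10 (0.00179). It rose in both accessions, by 1.57 ± 0.07 (Col-0) and 1.02 ± 0.07 (C24) over the whole span, whereas the C24 change of AT5G41250 was -4.20. AT1G21480 was higher in C24 by 0.42 ± 0.09 (0.00207) at 10-11 days and 0.61 ± 0.09 (5.28e-05) at 12-13 days. At 8-9 days it was higher by 0.26 ± 0.09 (limma adjusted p = 0.043), a call lost in 5 of 6 analyses with 1 compared array left out. AT5G25820 was higher by 0.57 ± 0.10 (limma adjusted p = 0.000663) at 8-9 days, and AT3G57630 by 0.60 ± 0.12 (0.00141) at that stage. AT5G25820 was also higher by 0.39 ± 0.10 (0.0117) at 10-11 days and 0.31 ± 0.10 (0.0363) at 12-13 days. These 2 calls were lost in 2 and 5 of 6 analyses with 1 compared array left out. AT4G16745 was higher by 0.55 ± 0.15 (0.0149) at 10-11 days, a call lost without 1 of the 6 compared arrays (highest adjusted p = 0.0589), and AT1G67410 by 0.36 ± 0.12 (0.037) at that stage, a call lost in 5 of 6 such analyses (highest adjusted p = 0.153). AT4G16745 was also higher at 8-9 days, by 0.52 ± 0.15 (limma adjusted p = 0.0204), a call lost in 3 of 6 such analyses.

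AT2G31990, a GT47 gene singled out after its values were seen, rose in both accessions, by more in the early step and by less in the late step in C24. Its log2 means were 5.06, 8.05 and 9.57 for Col-0, against 4.85, 8.72 and 9.35 for C24. The difference of courses was 0.89 ± 0.15 (SE; limma adjusted p = 0.000721) in the early step, -0.90 ± 0.15 (0.00106) in the late step, where 8.27% of all probe sets passed, and -0.01 ± 0.15 (0.98) over the whole span.

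**Figure D2:**
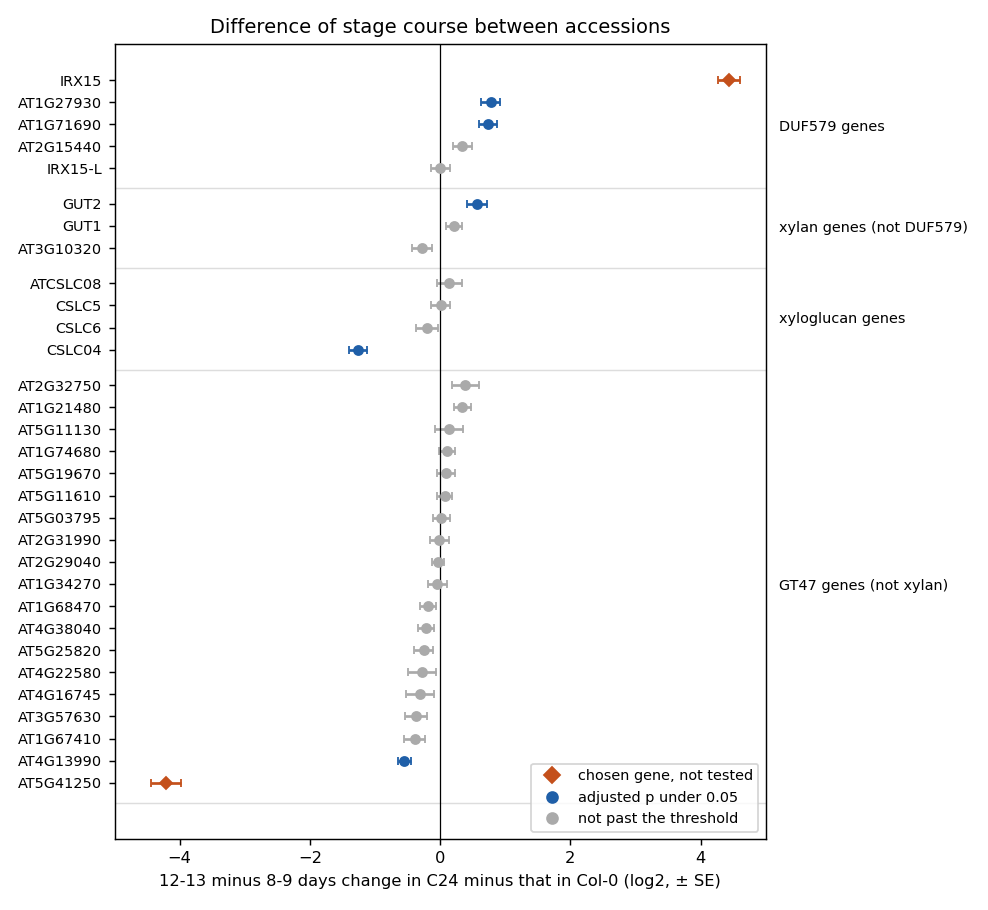
Whole-span difference of courses (change from 8-9 to 12-13 days in C24 minus that in Col-0, log2, ± SE) for IRX15, AT5G41250 and the measured DUF579, xylan, xyloglucan and GT47 genes, grouped by list. The chosen genes (orange diamonds, not tested) lie at 4.44 and -4.22. The DUF579, xylan and GT47 genes with an adjusted p under 0.05 (blue) lie between -0.55 and 0.78. CSLC04 of the xyloglucan list (blue) lies at -1.26, and genes in grey did not pass.

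Xyloglucan genes were looked at because MUR3 and its relatives belong to GT47. Of 19 such genes 4 were measured, all of the CSLC family, whose enzymes build the glucan backbone of xyloglucan. At 8-9 days none passed by limma (2 of 4 at an unadjusted p under 0.05), at 10-11 days 1 was higher and 1 lower (19.1% of all probe sets passed), and at 12-13 days 1 was lower (23%). CSLC04 (AT3G28180) had log2 means of 6.79, 6.76 and 6.60 for Col-0, against 6.55, 5.67 and 5.10 for C24. C24 minus Col-0 was -1.09 ± 0.10 (SE; limma adjusted p = 2.77e-07) at 10-11 days and -1.49 ± 0.10 (3.08e-09) at 12-13 days. CSLC04 fell in C24, with a whole-span change of -1.45 ± 0.10 (3.29e-10), and did not pass in Col-0, where its change was -0.19 ± 0.10 (0.108), and the difference of the courses was -1.26 ± 0.14 (8.16e-06). Its course in C24 had the direction of AT5G41250, but CSLC04 ended below Col-0 and AT5G41250 above it. CSLC5 rose in both accessions, where Col-0 means went from 7.57 to 10.00 and C24 means from 7.74 to 10.19, and was higher in C24 at 10-11 days by 0.53 ± 0.10 (limma adjusted p = 0.00106).

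**Figure D3:**
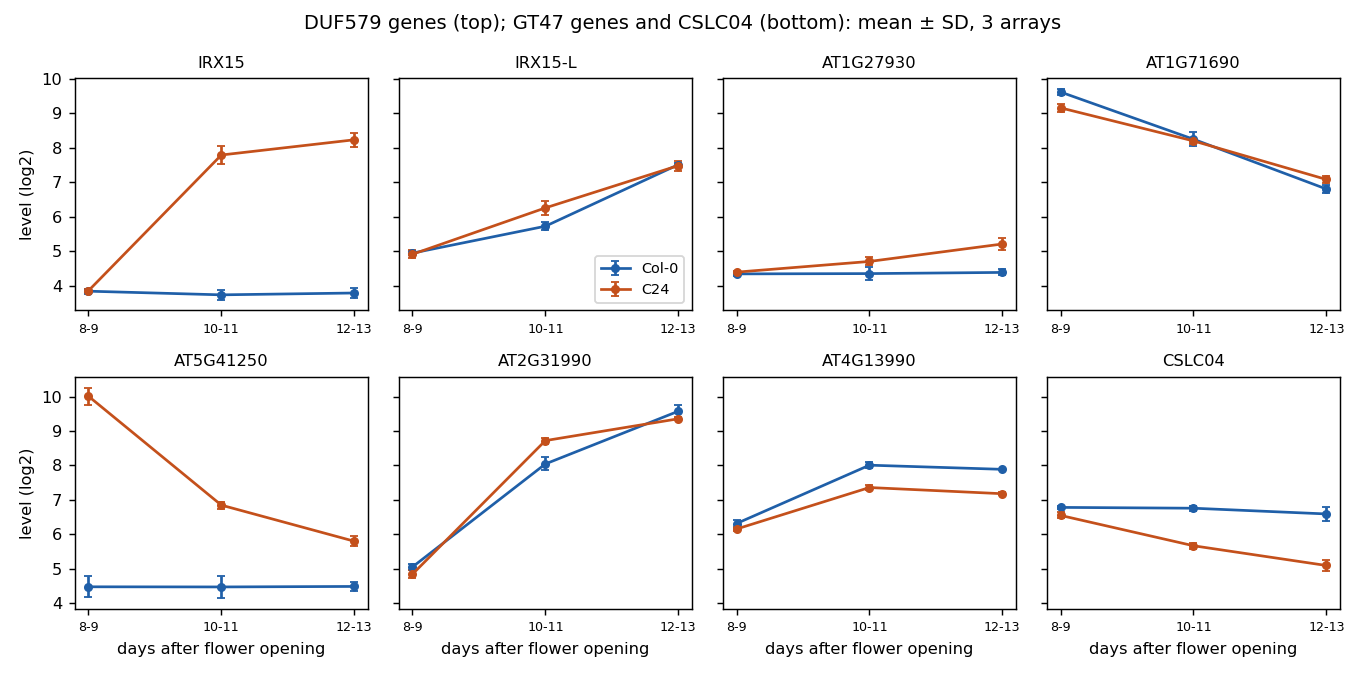
Group means ± SD (3 arrays) of the log2 level against days after flower opening for IRX15 and 3 DUF579 genes (top) and for AT5G41250, 2 GT47 genes and CSLC04 (bottom), Col-0 in blue and C24 in orange. The Col-0 and C24 lines of IRX15-L meet at 8-9 and 12-13 days, while those of IRX15 part after 8-9 days and those of AT5G41250 are apart at every stage.

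The genes whose level followed each of the chosen genes most closely over the 18 arrays were taken from 883 other single-gene probe sets whose group means spanned at least 2 log2 units. The 18 arrays share 6 groups, so each correlation mostly reflects group means, and it is given with no p. For IRX15 they were AT2G15960 (r = 0.961), UGT85A7 (0.954), a member of the UDP-glycosyltransferases, AGL19 (0.950), a MADS-box factor known from flowering, TBL26 (0.950) and AT1G48800 (0.949), annotated as a terpene synthase. TBL26 belongs to the TRICHOME BIREFRINGENCE-LIKE family, other members of which acetylate wall polysaccharides, xylan among them. The TBL26 log2 means were 5.94, 6.35 and 6.54 for Col-0, against 6.42, 7.98 and 8.01 for C24. AGL19 had means of 3.90, 3.78 and 3.85 for Col-0, against 4.65, 5.81 and 6.34 for C24, and was already apart at 8-9 days by 0.75 ± 0.10 (SE). Its Col-0 means, like those of IRX15, lay below the lowest array 25th percentile (4.41), so a level Col-0 course is not shown for either gene. AT2G15960 differed by stage in both accessions, with means of 4.91 and 5.97 at the first and last stage for Col-0 seeds and 6.17 and 10.08 for those of C24. UGT85A7 started alike in both accessions, with 5.61 in C24 against 5.60 in Col-0 at 8-9 days, and reached 6.22 in Col-0 and 7.89 in C24. The IRX15 levels at 8-9 days lay below the 25th percentile of each array in both accessions, so a like start is not shown for IRX15.

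For AT5G41250 the closest genes were AT5G42860 (r = 0.983), XIE (0.968), a myosin motor, AT5G48570 (0.927), a peptidyl-prolyl isomerase of the FKBP class, AT1G62410 (0.925) and AT1G52810 (0.921). AT5G42860 had log2 means of 4.59, 4.89 and 5.00 for Col-0, against 8.00, 6.18 and 5.58 for C24. Its C24 minus Col-0 difference was 3.41 ± 0.17 (SE) at 8-9 days and 0.58 ± 0.17 at 12-13 days, against 5.53 and 1.31 for AT5G41250. XIE had means of 4.46, 4.43 and 4.33 for Col-0, against 6.39, 5.41 and 4.64 for C24. AT1G62410 arrays of C24 overlapped those of Col-0 from 10-11 days on, with means of 6.75, 4.43 and 4.42 in C24 and 4.27, 4.08 and 4.22 in Col-0. These Col-0 means lay below the lowest array 25th percentile (4.41), so they are not shown to lie above background. All 5 genes were at their highest in C24 at 8-9 days.

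**Figure D4:**
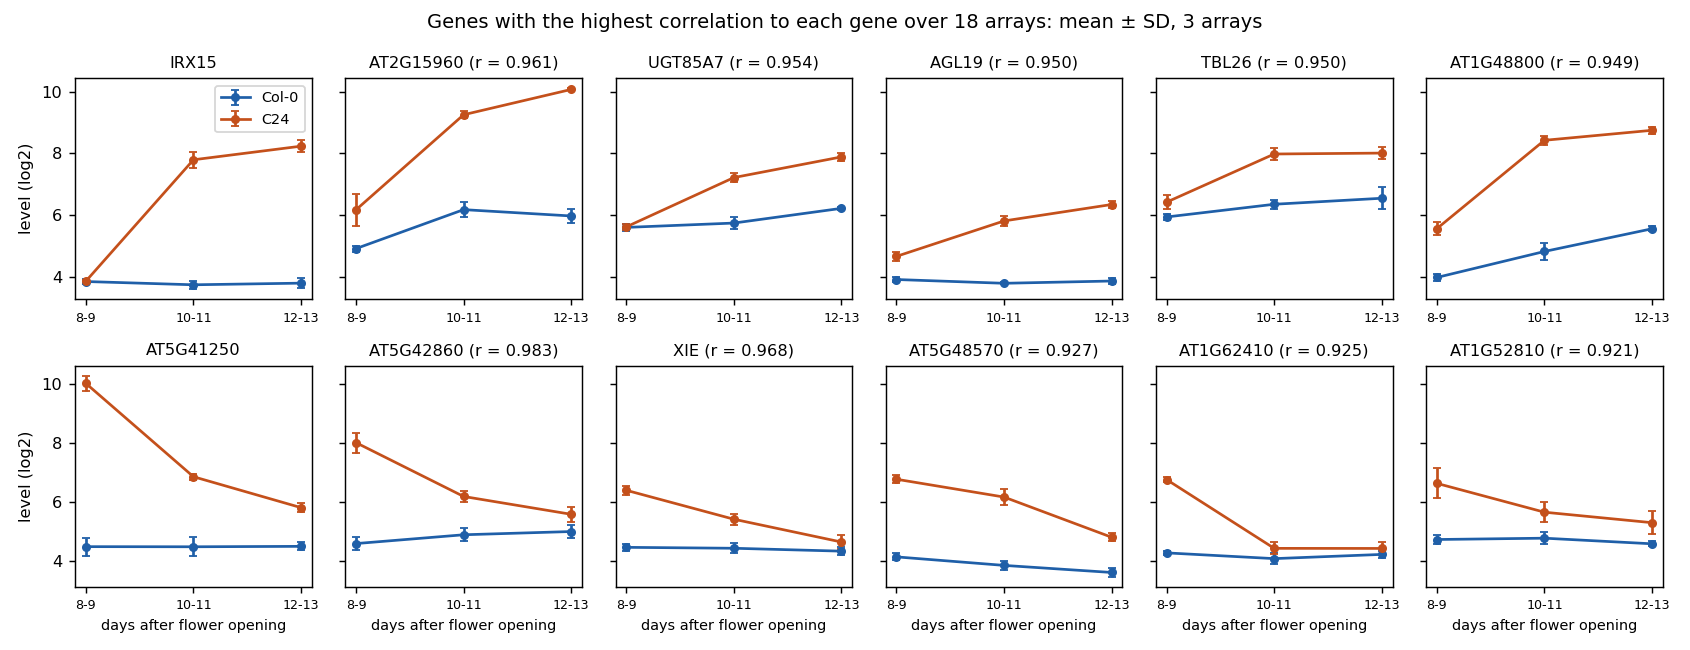
Group means ± SD (3 arrays) of the log2 level against days after flower opening for IRX15 (top left), AT5G41250 (bottom left) and the 5 genes most correlated with each over 18 arrays, Col-0 in blue and C24 in orange. Several genes in the top row, such as AT1G48800, are also higher at 12-13 than at 8-9 days in Col-0, whereas IRX15 itself stays between 3.73 and 3.84 there.

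The neighbours on the chromosome were examined to see whether the accession differences extend to adjacent genes. The 5 annotated genes on either side were looked up in gene order (10 for each gene), and 7 around IRX15 and 3 around AT5G41250 were measured. Around IRX15 the accession differences ranged from -0.10 to 0.57 at 8-9 days, from -0.12 to 0.36 at 10-11 days and from -0.20 to 0.56 at 12-13 days, with 1, 1 and 2 of 7 past the threshold, all higher in C24, against 19.5%, 19.1% and 23% of all probe sets. AT3G50210, the gene next to IRX15, had log2 means of 8.77, 8.45 and 8.20 for Col-0, against 8.70, 8.81 and 8.76 for C24. Its C24 minus Col-0 difference was 0.56 ± 0.09 (SE; limma adjusted p = 0.000191) at 12-13 days, and its whole-span difference of courses was 0.62 ± 0.13 (0.00415), of the same direction as that of IRX15. AT3G50230, on the other side of IRX15, did not pass at any stage, with differences of 0.25, 0.14 and 0.13.

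KICP-02, a kinesin gene 2 places from IRX15, was higher in C24 by 0.57 ± 0.19 (limma adjusted p = 0.0399) at 8-9 days and 0.55 ± 0.19 (0.0416) at 12-13 days, calls lost in 5 and 4 of 6 analyses with 1 compared array left out. Around AT5G41250 the measured neighbours were AT5G41190, AT5G41270 and AT5G41280, none of them adjacent to it. AT5G41270 was higher in C24 at 8-9 days by 0.39 ± 0.08 (limma adjusted p = 0.00228) and by 0.01 ± 0.08 (0.945) at 12-13 days. Its whole-span difference of courses was -0.38 ± 0.12 (0.0457), a call lost in 8 of 12 analyses with 1 array left out and in 5 of 7 other settings (adjusted p up to 0.125 over all of them). AT5G41190 was lower in C24 at 10-11 days by -0.35 ± 0.09 (limma adjusted p = 0.00894), a call lost without replicate 1 of C24 at that stage (0.055). It was also lower at 12-13 days by -0.28 ± 0.09 (limma adjusted p = 0.0288), a call lost in 4 of 6 analyses with 1 compared array left out. At each stage 1 of these 3 neighbours passed, against 19.5%, 19.1% and 23% of all probe sets, too few to be read closely. All accession differences of the measured neighbours were at most 0.57 in size.

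**Figure D5:**
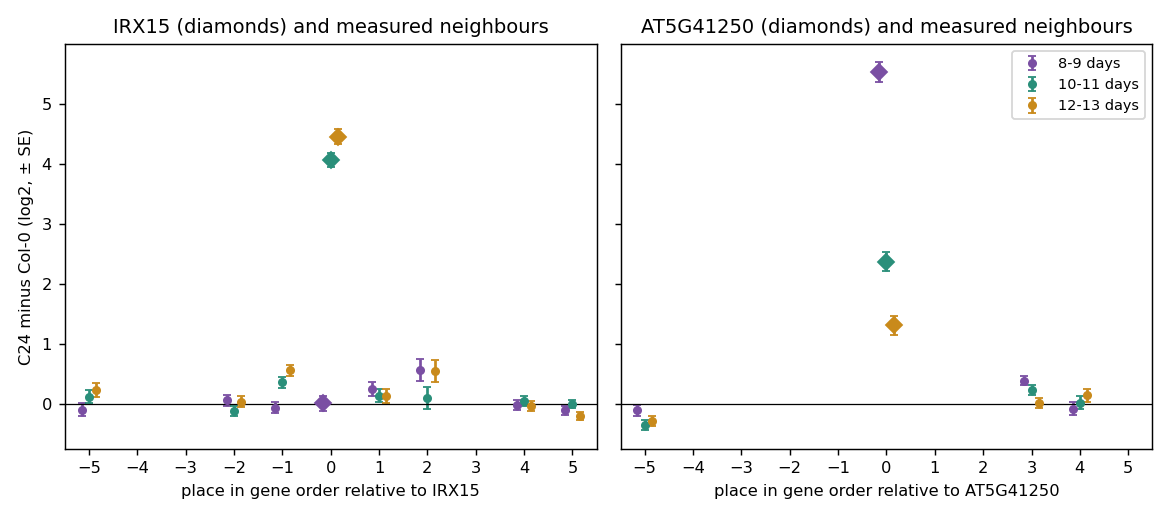
C24 minus Col-0 differences (log2, ± SE) of IRX15 (left, diamonds) and AT5G41250 (right, diamonds) and of the measured genes up to 5 places away in gene order, coloured by stage. The neighbours lie between -0.35 and 0.57, while the 2 chosen genes reach 4.45 and 5.53.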

How the data were processed

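Levels are log2 values per probe set from the table the authors deposited. Per the labels, the arrays were Affymetrix ATH1, and the authors kept probes identical in both genomes and matching TAIR10 gene models, with at least 3 probes per probe set. TAIR10 is also in the submitters' processing notes. How the background was corrected, how the arrays were normalized and which software did it is not stated in the labels or the table. The values were used as deposited, with no filter. Of 19766 probe sets 11 controls were left out. Of the other 19755, the platform annotation names a single gene for 11763 and several for 61, and 7931 are unnamed here. Gene order and symbols came from RefSeq's TAIR10.1 tables, which matched 11718.

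A group-means model over the 18 arrays was fitted with limma 3.58.1 in R 4.3.3 (lmFit, eBayes, residual df 12, prior df 5.80), with Benjamini-Hochberg adjustment over all 19755 probe sets and a threshold of 0.05. The fit was tested on simulated data. The number of arrays limits the precision. IRX15, AT5G41250 and the gene lists (xylan, DUF579, xyloglucan, GT47, secondary wall cellulose and lignin, secondary wall regulators, and markers of seed coat, embryo, endosperm and silique wall) were chosen with earlier results of these data known.

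Named were list genes past the threshold for an accession difference or the whole-span course (at most the 8 with the largest whole-span value, 4 for marker lists), the 5 most correlated genes, and neighbours up to 5 places away. Alternatives were a second quantile normalization, median centring, no probe sets of the dimmest 30%, a trended robust prior, array weights, the compared groups alone, a replicate block and each array left out. No exact permutation test of single genes was run, since 3 against 3 arrays cannot go below a two-sided p of 0.1.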

Additional observations from a re-analysis of the deposited data

Results flagged for a closer look

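For 10 genes named beside IRX15 and AT5G41250 the stage course differed between the accessions by limma's interaction test, which 10.6% of all probe sets passed. By list, 2 of 4 DUF579, 1 of 4 xylan, 1 of 4 xyloglucan and 2 of 20 GT47 genes passed, GUT2 counting in 2 lists. So did 3 of 5 seed coat markers, 1 of 7 neighbours of IRX15 and 1 of 3 of AT5G41250, and no marker of other tissues. Most of these counts are too small to be read closely against that share. The genes are listed here with the whole-span difference of courses, C24 minus Col-0 on the log2 scale. Among wall genes the values were 0.78 for AT1G27930 and 0.74 for AT1G71690 of the DUF579 family, 0.57 for GUT2 of xylan synthesis, -0.55 for AT4G13990 of GT47 and -1.26 for CSLC04 of xyloglucan synthesis. Among seed coat markers they were 1.70 for BAN, 1.79 for AT3G50990 and 0.72 for DFR. Among chromosome neighbours they were 0.62 for AT3G50210, next to IRX15, and -0.38 for AT5G41270, 3 places from AT5G41250. The call of GUT2 is lost when single arrays are left out, and that of AT5G41270 then and in 5 of 7 other settings, as given above.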

How the results depend on the processing

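All 24 differences and courses of IRX15 and AT5G41250 moved by less than the spread between replicates under 7 alternatives and with each array left out, and 18 kept their sign. The other 6, the IRX15 accession difference at 8-9 days and Col-0 stage changes of both genes, were at most 0.05 in size and ranged from -0.18 to 0.19. The whole-span difference of courses then ranged from 4.34 to 4.54 for IRX15 and from -4.39 to -4.11 for AT5G41250. Counts of all probe sets stayed within 1.5 times, except the late-step course, at 1634, with 1040 to 1767 when 1 array was left out (1040 without replicate 2 of Col-0 at 10-11 days). Counts of list genes were less stable, and the cause was not tested. The xylan count at 12-13 days (1) was 0 after a second quantile normalization, after median centring, with array weights and with the compared groups alone, where GUT1 had limma adjusted p = 0.0515, 0.052, 0.0802 and 0.125 and unadjusted p = 0.0123, 0.012, 0.0187 and 0.0332. The DUF579 count at 10-11 days (2) was 1 without the dimmest 30% and 1 with the compared groups alone. At 12-13 days (1) it was 2 after quantile normalization and 2 with a trended prior, and 0 without the dimmest 30%, which removes AT1G27930 from the test. For the whole-span course (2) it was 1 without the dimmest 30%. The GT47 count at 8-9 days (7) was 4 after centring and 4 with the compared groups alone, and at 12-13 days (5) it was 2 with array weights and 3 with the compared groups alone. With 1 array left out, the xylan counts ranged over 0 to 1 at 12-13 days and 0 to 1 for the whole-span course. The DUF579 counts ranged over 1 to 2 at 10-11 days and 1 to 2 at 12-13 days. The GT47 counts ranged over 3 to 6, 4 to 7 and 2 to 4 in stage order, and 1 to 3 for the whole-span course. Replicate numbers did not pair the samples: over 45 same-numbered pairs the correlation of deviations was -0.21 to 0.21, with 6 over 0.1. The replicate block kept 56 of 61 calls of named genes and gave 2 in place of 1 for DUF579 at 12-13 days. Signal limits the low levels: values below the 25th percentile of an array are not shown to lie above background.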

Other observations

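A small span of the Col-0 group means beside a large one in C24 was uncommon. With limits chosen after the values were seen, 12 of 19755 probe sets (0.0607%) had Col-0 group means spanning under 0.5 log2 units and C24 group means spanning at least 2, and 9 of them had a single gene name. IRX15 (C24 span 4.39) and AT5G41250 (4.20) were the largest of the 9. Both had been chosen for their courses in these arrays, so this place is no separate evidence. AT5G38780, a gene of the SABATH methyltransferases, had C24 means of 4.32, 6.05 and 8.06 in stage order and stayed between 4.04 and 4.10 in Col-0. LCR67, a defensin-like gene, had C24 means of 3.55, 3.56 and 6.68 and stayed between 3.52 and 3.85 in Col-0. The Col-0 means of IRX15, AT5G38780 and LCR67 lay below the lowest array 25th percentile (4.41). Such levels are not shown to lie above background, so a small span there does not show a level transcript. The reverse, a small span in C24 and a large one in Col-0, was found for 16 probe sets (0.081%), 10 with a single gene name. Both accessions spanned at least 2 units for 849 (4.3%).

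Among the 10 genes of the reverse kind, AT2G15325 had Col-0 means of 9.53, 6.11 and 5.42 and C24 means of 5.11, 4.64 and 4.82. AT1G11590 had Col-0 means of 7.31, 3.66 and 3.72 and stayed between 3.61 and 3.65 in C24. AT4G14980 had Col-0 means of 4.10, 6.88 and 7.80 and stayed between 3.66 and 3.97 in C24. The C24 means of AT1G11590 and AT4G14980 lay below the lowest array 25th percentile (4.41), so a level course is not shown for them. All values of this kind are descriptions of group means, with no test.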
